A study of Mus musculus with 24 samples.

Results

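Heme is built by a chain of enzymes that begins and ends in the mitochondrion. The genes described here are 9 of the 47069 genes in the deposited count table, chosen by name: Alas1, Alas2, Alad, Uros, Urod, Cpox, Ppox and Fech, which encode enzymes of heme synthesis, and Hmox1, which encodes the inducible enzyme that breaks heme down. All 9 were found by their Ensembl identifier, and all 9 passed the filter on low counts that left 13419 genes for testing. RNA was sequenced from mouse fetal liver cells taken at E12.5-13.5 from mice that make Cas9 and EGFP from the ubiquitous CAG promoter. The name of their strain opens with B6J.129(Cg), goes on with the allele Gt(ROSA)26Sortm1.1(CAG-cas9*,-EGFP) and ends in Fezh/J. Every group carried a guide RNA against Gata1 (sgGata1), so the controls share the Gata1s background, in which only a short form of the transcription factor GATA1 is made. The second transgene was miR-125b or a control (miR-ctrl), and doxycycline was given at 1 µg/mL. Each construct was sampled after 48 h of doxycycline (day 2), at day 10, at day 13 with doxycycline continued, and at day 13 after doxycycline was withdrawn on day 10. That makes 8 groups of 3 libraries. The labels do not say whether the libraries of a group came from separate embryos or cultures, nor whether cells were pooled or cloned, so the p-values measure only the spread between these libraries. The question that the design addresses is what miR-125b changes in Gata1s fetal liver cells, and what happens when doxycycline is taken away.

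Heme synthesis starts when an aminolevulinate synthase joins glycine to succinyl-CoA in the mitochondrion. Alas1 is the form used in most tissues and is held down by heme itself, whereas Alas2 is the form of developing red cells and its gene is a known target of GATA1. Alad, Uros and Urod act in the cytosol, Cpox and Ppox act at the mitochondrial membranes, and Fech, ferrochelatase, inserts iron into the finished ring. Hmox1 opens the ring and frees the iron, and its gene is held down by the repressor Bach1 until heme or oxidative stress releases it.

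The sequence of the microRNA is shown because the only member with a match to it is the one that was lower in every pair of libraries. The mature strand in RefSeq (GRCm38.p6) comes from Mir125b-1 at chr9:41581940-41581961 and from Mir125b-2 at chr16:77646279-77646300, both on the plus strand, and its seed, bases 2 to 8, is in capitals.
mmu-miR-125b-5p: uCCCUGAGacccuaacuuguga
The 7-base match to this seed in a messenger RNA is CTCAGGG. It occurred 2 times in the longest annotated 3′ UTR of Fech, which is 5243 bases long, and 0 times in those of the other 8 members, whose longest UTRs ran from 65 to 1629 bases. The first of the Fech matches is followed by an A. Among 21110 genes with an annotated 3′ UTR, 14.1% held at least 1 match. Among the 11663 of them that were tested here, 17.3% did. A match is a description of the sequence, and a long UTR holds more of them by its length alone.

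Promoter sequence was available in RefSeq (GRCm38.p6) for 7 of the 9 members, in 10 windows of 250 bases upstream of a start site. The windows with a GATA motif are shown because GATA1 is the factor altered in every group. The motif searched was AGATAA or TGATAA on either strand, which do not overlap each other, and matches are in capitals (TTATCT or TTATCA where the match is on the opposite strand). Matches were found for Alas2, for Cpox and for a start site inside the Uros gene.
Alas2 (chrX:150547167-150547416, plus strand): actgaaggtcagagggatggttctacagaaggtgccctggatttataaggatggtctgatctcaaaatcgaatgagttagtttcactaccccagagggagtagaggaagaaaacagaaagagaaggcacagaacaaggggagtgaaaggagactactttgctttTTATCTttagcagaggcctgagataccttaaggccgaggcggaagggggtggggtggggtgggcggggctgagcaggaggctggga
Cpox (chr16:58669958-58670207, plus strand): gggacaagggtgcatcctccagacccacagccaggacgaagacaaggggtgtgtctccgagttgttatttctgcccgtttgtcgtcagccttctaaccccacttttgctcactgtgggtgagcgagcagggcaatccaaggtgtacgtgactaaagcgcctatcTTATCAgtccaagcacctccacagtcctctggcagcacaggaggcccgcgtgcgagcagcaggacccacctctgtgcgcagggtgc
Uros, internal start site (chr7:133702501-133702750, minus strand): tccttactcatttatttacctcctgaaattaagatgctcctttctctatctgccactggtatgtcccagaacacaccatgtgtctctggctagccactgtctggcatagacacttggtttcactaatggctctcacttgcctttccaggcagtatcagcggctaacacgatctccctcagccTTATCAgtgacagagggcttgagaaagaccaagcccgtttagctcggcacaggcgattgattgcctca
The match begins 86 bases upstream of the start site for Alas2, 86 for Cpox and 68 for Uros. Of all 32851 promoter windows of this length, 16.6% held the motif. Alas1, Alad, Urod, Ppox and the outer Uros start site had none within these windows, which says only that these letters are not there. The motif TGACNNNGC, the core of the element bound by Bach1 and Nrf2, was in 0 of the 10 windows and in 10.2% of all windows, while Hmox1 and Fech were not looked at. The motif CCNCNCCC, a form of the box bound by Klf factors, was in 6 of the 10 windows and in 45.9% of all windows.

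Libraries held 14694900 to 23755245 counts, and levels are given as CPM (counts scaled to a common library total) after TMM scaling, with factors from 0.932 to 1.04. Gata1 itself lay at 205 to 419 CPM in the 12 miR-125b libraries and 194 to 514 in the 12 controls. A gene count cannot see the small cuts a guide makes, so this checks no label. The genes Mir125b-1 and Mir125b-2 had 0 counts in every library, and the microRNA was thus not measured. Arid3a, the target named in the study's title, lay at 26.7 to 57.5 CPM with miR-125b and 49.5 to 76.3 CPM in the controls. Megakaryocyte markers were abundant, with medians over the 24 libraries of 1682 CPM for Pf4 and 1598 for Itga2b. Of the red cell genes, Slc4a1, the anion exchanger of the red cell membrane, had 0 counts in all 24 libraries, Hbb-bs had a median of 19.0 CPM and Klf1 of 25.4. Of 8 hepatocyte markers, 3 had 0 counts in every library, as had the macrophage markers Cd5l and Vcam1. Other markers of these lists were counted in every library. These were Afp (25 to 82 counts) and Apoa2 (4 to 16) of hepatocytes, and Cd68 (43 to 108) and Csf1r (1 to 37) of macrophages. The 8 libraries numbered 2 stood apart from the others of their groups, and results that rest on them are given with and without them. In bulk libraries, fewer cells of a type and less RNA per cell cannot be told apart.

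Divided by the joint length of all annotated exons of a gene, the 9 members spanned more than 2 orders of magnitude. That length was 13838 bases for Fech, 6174 for Alas1 and 1871 for Alad, and transcripts can be shorter. The order below depends on this divisor. In CPM without it, Cpox had the highest median at 150, and Fech at 68.4 was near Alad at 72.2. Per kb, Alad was highest, with a median over the 24 libraries of 38.6 CPM per kb, followed by Urod at 34.2 and Cpox at 22.6. Ppox had 12.03 CPM per kb, Fech 4.94, Hmox1 3.53, Uros 3.43 and Alas1 2.78. Alas2 came last at 0.134 CPM per kb. The range of Urod (32.1 to 45.9) lay inside that of Alad (20.8 to 59.2), so the order of these genes is not firm, and above that of Cpox (11.2 to 29.98). Those of Fech (3.89 to 7.71), Hmox1 (1.27 to 8.30), Uros (2.28 to 4.26) and Alas1 (2.05 to 3.75) overlapped, and their order is not firm either. Alad and Urod stood above 89.2% and 87.8% of the 13419 genes tested on this scale, Alas1 above 38.5% and Alas2 above 5.53%.

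**Figure D1:**
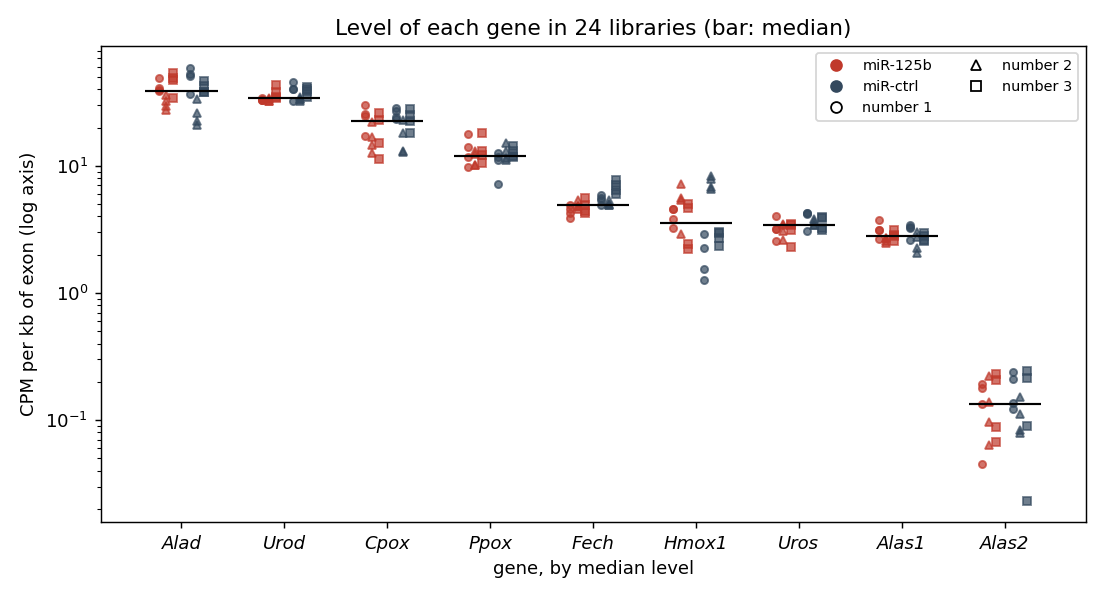
CPM per kb of exon (log axis) for the 9 genes in all 24 libraries, ordered by median, with the construct as colour, the replicate number as symbol and the median as bar. Alad and Urod are at the top with medians of 38.6 and 34.2, and Alas2 stands alone at the bottom with a median of 0.134.

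The first step was carried almost wholly by Alas1 at the level of RNA. Alas1 (ENSMUSG00000032786, chr9:106233455-106248654, minus strand, GRCm38) had 262 to 439 counts in every library. Alas2 (chrX:150547375-150570638, plus strand) had 1 to 12. Per kb, Alas1 was above Alas2 in 24 of 24 libraries, by 11.5-fold to 110-fold. Between the group means of CPM per kb the ratio was lowest in the miR-125b cells at day 2, at 12.7, and highest in the miR-125b cells after withdrawal, at 41.6.

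Alas1 was much alike in both constructs. Its libraries read 16.5, 16.6 and 17.5 CPM with miR-125b at day 2, against 16.2, 18.7 and 17.3 in the controls. At day 10 they read 19.3, 15.2 and 17.6 against 20.4, 14.1 and 18.2. At day 13 on doxycycline they read 19.3, 15.9 and 15.9 against 21.0, 16.997 and 15.8. After withdrawal they read 23.2, 16.7 and 19.4 against 20.03, 12.7 and 16.2, higher with miR-125b in 3 of 3 pairs but overlapping. Averaged over the 4 conditions, the log2 fold change of Alas1 with miR-125b was 0.037 (95% interval -0.14 to 0.22), with an edgeR adjusted p of 0.929.

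Alas2 was near the limit of what this depth can count. The miR-125b libraries had 8, 11 and 9 counts at day 2, 5, 3 and 3 at day 10, 9, 6 and 9 at day 13 and 2, 4 and 4 after withdrawal. The controls had 6, 3 and 12, then 6, 5 and 4, then 12, 6 and 1, then 8, 4 and 12. In the miR-125b cells the levels after withdrawal (0.108, 0.233 and 0.213 CPM) did not overlap those on continued doxycycline (0.431, 0.335 and 0.497 CPM). That difference of -1.16 ± 0.61 (SE) on the log2 scale was not called, with an edgeR adjusted p of 1.00, and 9.02% of all genes tested did not overlap in that comparison. From day 2 to day 10 Alas2 differed by -1.29 ± 0.59 in the miR-125b cells (edgeR adjusted p = 0.311), again without overlap, and 19% of all genes did so. Alas2 shares 311 exon bases with Apex2 on the opposite strand, which had 173 to 438 counts. The strand setting of the counting is not given in the sources used here, and reads of the pair cannot be told apart there. Apex2 itself differed by -0.40 over the same interval (edgeR adjusted p = 0.229).

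Among the cytosolic enzymes, Uros was the member whose level differed with miR-125b at day 10. Uros (chr7:133686243-133710072, minus strand), uroporphyrinogen III synthase, closes the ring of 4 pyrroles. At day 10 the miR-125b libraries read 9.14, 9.33 and 8.16 CPM and the controls 15.2, 12.3 and 13.9. All 3 miR-125b libraries lay below all 3 controls. The log2 fold change was -0.64 ± 0.14 (SE, 95% interval -0.93 to -0.34), with an edgeR adjusted p of 0.0409. Uros was thus the 1 member of 9 called at day 10, where 0.872% of all genes were called (117 genes, 0.417% lower and 0.455% higher). With the replicate number as a block the fold change was the same at -0.64 and the adjusted p 0.00956, with 8.63% of all genes called. The call is narrow. It was lost in 4 of 6 fits that left out 1 of these libraries. The edgeR adjusted p became 0.125 or 0.276 when miR-125b library 1 or 3 was dropped, and 0.162 or 0.171 when control library 1 or 3 was dropped.

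At the other times the Uros groups overlapped. At day 2 the miR-125b libraries read 11.3, 10.9 and 11.3 CPM against 15.1, 12.3 and 11.1, a log2 fold change of -0.20 ± 0.14. At day 13 they read 14.5, 12.2 and 12.5 against 14.9, 13.6 and 11.7 (-0.037 ± 0.14), and after withdrawal 11.3, 12.5 and 12.2 against 10.9, 13.1 and 14.1 (-0.085 ± 0.14). The day 10 effect differed from that at day 2 by -0.44 ± 0.20, with an edgeR adjusted p of 0.709, so a difference between the times was not shown. From day 2 to day 10 the miR-125b libraries of Uros moved by -0.33 ± 0.14 without overlap (edgeR adjusted p = 0.274). The span of Uros overlaps Bccip on the opposite strand, with 0 shared exon bases, and Bccip differed by -0.22 at day 10 (edgeR adjusted p = 0.283).

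Alad (chr4:62509169-62519918, minus strand), which joins a pair of aminolevulinate molecules, was not called in any comparison. It read 73.8, 60.7 and 100.05 CPM with miR-125b at day 2 against 68.2, 62.4 and 78.9. At day 10 it read 72.7, 54.8 and 64.2 against 98.2, 48.4 and 87.3. At day 13 it read 91.2, 51.6 and 92.0 against 94.999, 38.9 and 71.2, and after withdrawal 76.5, 67.7 and 88.0 against 111, 42.3 and 71.7. The second value of each triple, that of the library numbered 2, was the lowest in all 8 groups. The mean log2 fold change with miR-125b was 0.029 (95% interval -0.33 to 0.39), and -0.050 without the libraries numbered 2.

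Urod (chr4:116989965-116994413, minus strand), which removes carboxyl groups from the ring, was the most even member between libraries. It ranged from 83.1 to 119 CPM over all 24, with a median of 88.5. At day 10 the miR-125b libraries read 85.7, 88.6 and 90.2 CPM and the controls 104, 90.6 and 108, without overlap but close. The log2 fold change there was -0.19 ± 0.12 (edgeR adjusted p = 0.425), and over the 4 conditions -0.10 (95% interval -0.23 to 0.019).

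**Figure D2:**
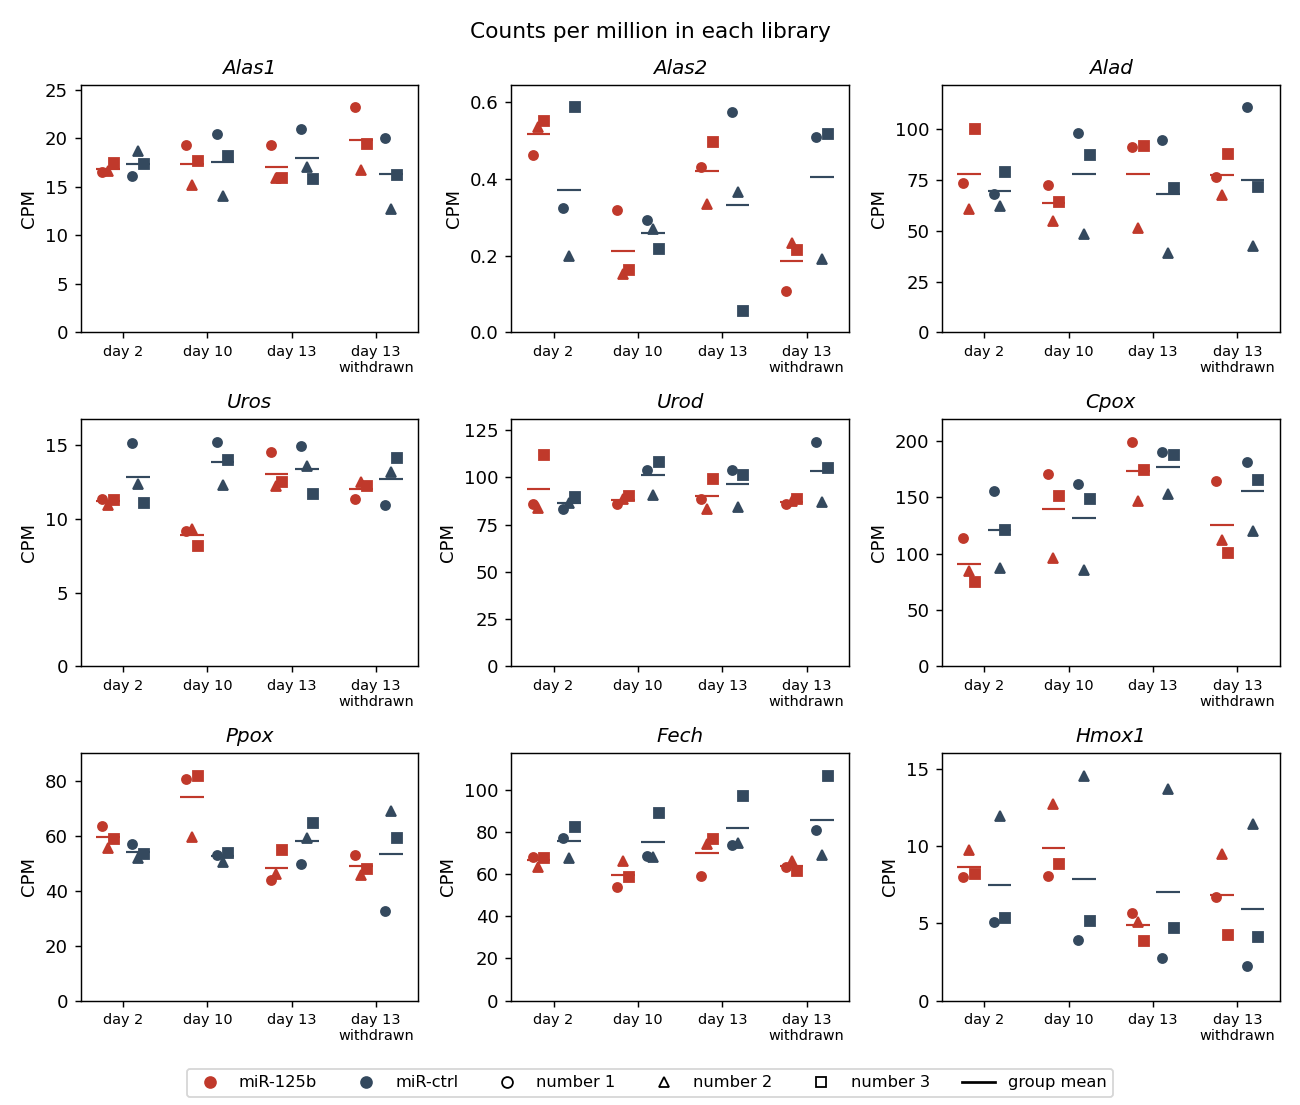
CPM in each library for the 9 genes, by condition, with the construct as colour, the replicate number as symbol and horizontal lines at group means; the axis of each panel starts at 0. At day 10 the 3 miR-125b libraries of Uros lie between 8.16 and 9.33, below the 3 controls at 12.3 to 15.2, and the library numbered 2 is the lowest of its group for Alad in 8 of 8 groups.

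Of the mitochondrial enzymes, Fech differed most steadily with miR-125b. Fech (chr18:64452914-64490251, minus strand) performs the last step. At day 2 the miR-125b libraries numbered 1 to 3 read 68.2, 63.5 and 67.8 CPM against 77.1, 67.6 and 82.4 in the controls. At day 10 they read 53.8, 66.3 and 58.5 against 68.5, 68.1 and 89.0. At day 13 they read 59.2, 74.1 and 76.6 against 73.9, 74.8 and 96.9. After withdrawal they read 63.3, 66.3 and 61.2 against 80.8, 68.8 and 107. The groups did not overlap at day 10 and after withdrawal, and overlapped at the other times.

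In each of the 12 pairs of libraries that share a condition and a number, Fech was lower with miR-125b. Of all genes tested, 66 (0.492%) were lower in 12 of 12 pairs, and the other 8 members were lower in 5 to 9 of 12. The log2 fold change of Fech averaged over the 4 conditions was -0.29 ± 0.07 (SE, 95% interval -0.45 to -0.14), with an edgeR adjusted p of 0.0576, just short of the threshold. In this comparison 1.28% of all genes were called (0.544% lower) and 0 of 9 members. An unadjusted edgeR p under 0.05 was found for 2 of 9 members, Fech and Uros, beside 1618 of 13419 genes. With the replicate number as a block 2 members fell, Fech by 0.28 ± 0.06 (edgeR adjusted p = 0.00618) and Uros by 0.24 ± 0.07 (edgeR adjusted p = 0.0390), where 6.39% of all genes were called. DESeq2, which called 357 genes in this comparison, called both as well, with DESeq2 adjusted p-values of 0.0150 for Fech and 0.0438 for Uros. By condition the fold changes of Fech were -0.19 at day 2, -0.34 at day 10, -0.23 at day 13 and -0.43 after withdrawal, each ± 0.15 (SE). None of the 4 was called alone, and the effect after withdrawal differed from that on continued doxycycline by -0.20 ± 0.21 (edgeR adjusted p = 1.00).

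The gap in Fech was small in the libraries numbered 2, with a mean log2 difference over the 4 pairs of -0.048, against -0.30 in those numbered 1 and -0.50 in those numbered 3. Without the libraries numbered 2 the mean fold change was -0.41, with 0.0252 as its edgeR adjusted p. Leaving out single libraries gave -0.33 to -0.25, and 2 of the 24 such fits called Fech, those without miR-125b replicate 2 at day 10 (edgeR adjusted p = 0.0370) and without control replicate 2 after withdrawal (edgeR adjusted p = 0.0233). The matches to the miR-125b seed in Fech lie at chr18:64457220-64457226 and chr18:64456135-64456141, in the 3′ UTR, and their part in its level was not tested.

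**Figure D3:**
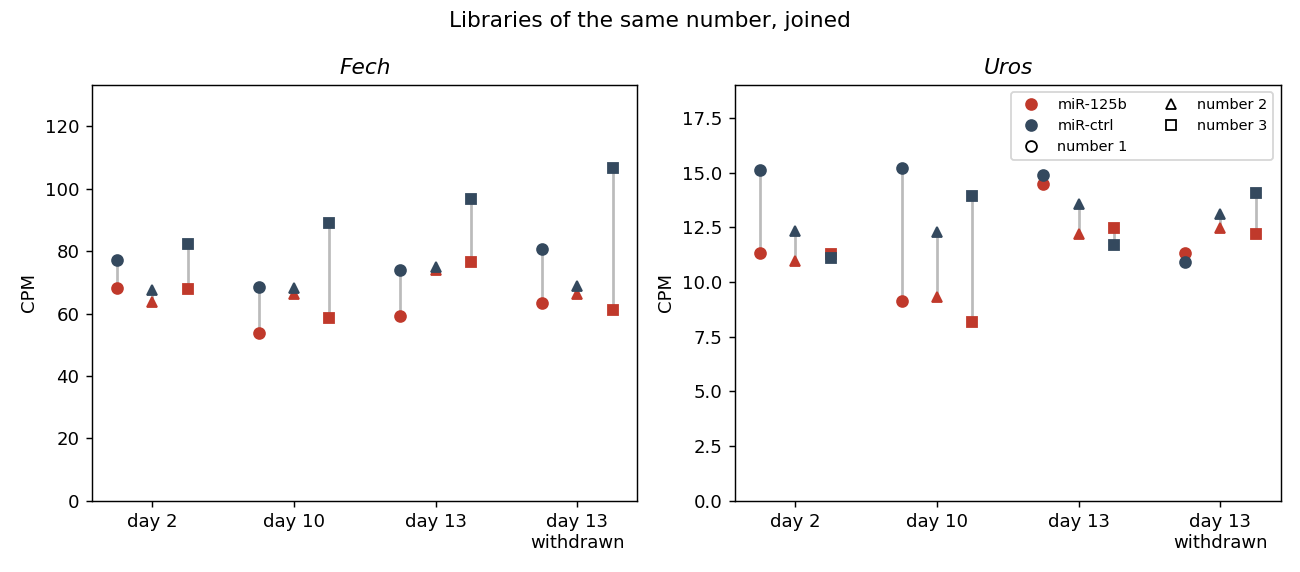
CPM of Fech (left) and Uros (right) in each library, with grey lines joining the miR-125b and control library of the same condition and replicate number. Fech is lower with miR-125b in 12 of 12 pairs and Uros in 9 of 12, and the Fech lines are on average shortest for number 2.

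Cpox (chr16:58670292-58717636, plus strand), coproporphyrinogen oxidase, varied most with culture time. It read 114, 84.5 and 74.7 CPM with miR-125b at day 2, then 171, 96.3 and 152 at day 10, 199.7, 147 and 175 at day 13 and 164, 112 and 100.5 after withdrawal. The controls read 156, 87.2 and 121, then 162, 85.3 and 149, then 191, 153 and 187, then 181, 120 and 166. From day 2 to day 10 the log2 change was 0.62 ± 0.27 in the miR-125b cells, higher in 3 of 3 pairs, and 0.12 ± 0.27 in the controls. Neither was called (edgeR adjusted p = 0.295 and 0.999). With the replicate block, Cpox rose in the miR-125b cells by 0.59 ± 0.14 (edgeR adjusted p = 0.0294), the 1 member called where 4.08% of all genes were. The difference between the constructs in this time change was 0.50 ± 0.38 (edgeR adjusted p = 0.839), and 0.47 with the block (edgeR adjusted p = 0.383). Across the 24 libraries, condition took 41.4% of the variance of Cpox on the log2 scale, replicate number 36.0% and construct 3.82%.

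Ppox (chr1:171275990-171281186, minus strand), protoporphyrinogen oxidase, was highest in the miR-125b cells at day 10. They read 80.6, 59.4 and 81.9 CPM, and the controls 53.0, 50.5 and 53.8, without overlap. The log2 fold change of 0.50 ± 0.18 was not called (edgeR adjusted p = 0.1604). At day 13 the libraries read 44.0, 46.0 and 54.8 against 49.8, 59.2 and 64.7 (-0.26 ± 0.18), and after withdrawal 53.1, 45.6 and 47.8 against 32.5, 68.8 and 59.3. At day 2 they read 63.7, 55.7 and 58.8 against 57.0, 51.9 and 53.4. Ppox shares 791 exon bases with B4galt3 on the opposite strand, which had 143 to 337 counts and differed by 0.27 at day 10 (edgeR adjusted p = 0.448). Its part in the Ppox counts was not tested.

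Hmox1 (chr8:75093621-75100589, plus strand), heme oxygenase 1, varied more between libraries of a group than between groups. The controls read 5.09, 11.9 and 5.32 CPM at day 2, 3.94, 14.5 and 5.15 at day 10, 2.72, 13.7 and 4.70 at day 13 and 2.23, 11.4 and 4.09 after withdrawal. The miR-125b libraries read 7.99, 9.73 and 8.21, then 8.05, 12.7 and 8.81, then 5.66, 5.09 and 3.86, then 6.71, 9.45 and 4.27. In the controls the library numbered 2 was the highest at all 4 conditions, and in the miR-125b cells at all but day 13. The mean log2 difference between the constructs was 0.97 in the pairs numbered 1, -0.52 in those numbered 2 and 0.28 in those numbered 3. Over all libraries the log2 fold change was 0.054 (95% interval -0.57 to 0.68). Without the libraries numbered 2 it was 0.67 (edgeR adjusted p = 0.0608), and with the replicate block 0.23 ± 0.18 (edgeR adjusted p = 0.540).

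Seen across conditions, miR-125b left most members within their spread. At day 2, 0 of 9 members were called by edgeR or DESeq2, and 0% of all genes were called by edgeR. An unadjusted edgeR p under 0.05 was found for 0 of 9, beside 709 of 13419 genes. The median log2 fold change of the members was 0.12, beside 0.0039 for all genes, and 0 members had groups apart, where 12.3% of all genes did. At day 10 the median was -0.19, beside 0.0042, and 4 of 9 members (Uros, Urod, Fech and Ppox) had groups that did not overlap, where 19.7% of all genes did. An unadjusted edgeR p under 0.05 was found there for 3 of 9 members (Uros, Fech and Ppox), beside 2334 of all 13419 genes. At day 13 on doxycycline 0 of 9 were called by either tool, with 0% of all genes called by edgeR. There 0 of 9 had an unadjusted edgeR p under 0.05, beside 388 of 13419 genes. The median was -0.074 beside -0.016, and 0 members had groups apart, where 8.52% of all genes were. After withdrawal 0 of 9 were called by either tool, where edgeR called 0.119% of all genes. An unadjusted edgeR p under 0.05 was found for 2 of 9 (Fech and Urod), beside 1147 of 13419 genes. The median was -0.13 beside -0.012. There Fech alone had groups apart, as did 11.4% of all genes. Of the 9, only Fech was lower in every pair at all 4 conditions. With the replicate block, 0 of 9 members were called at day 2, at day 13 or after withdrawal, where the block called 0%, 0.0149% and 1.86% of all genes.

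**Figure D4:**
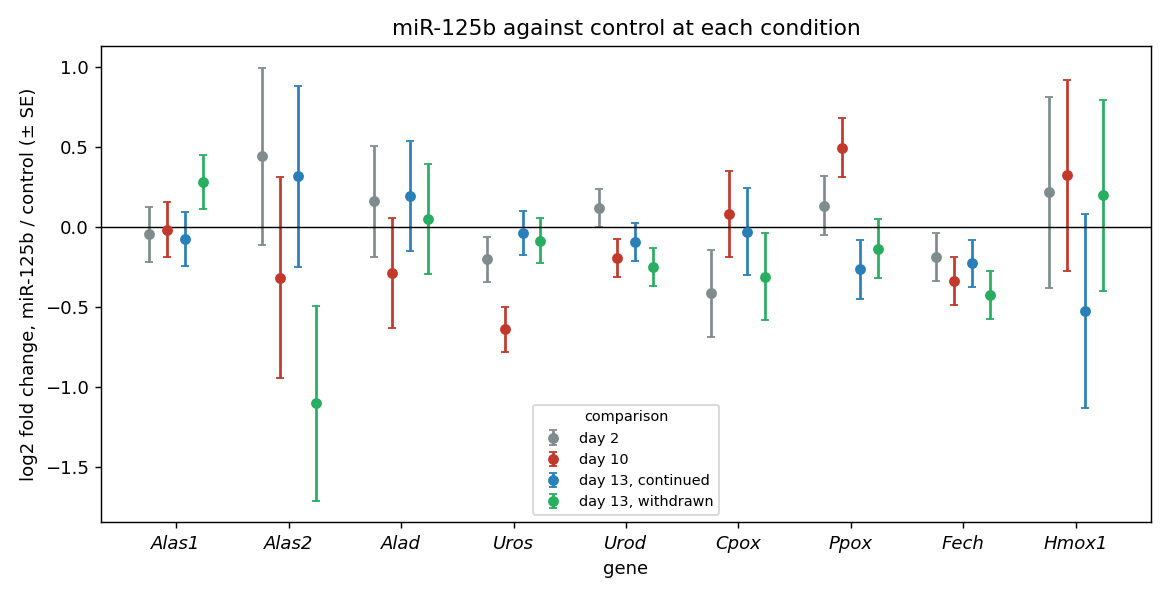
Log2 fold change of miR-125b over control for each gene at the 4 conditions, as points with bars of ± 1 SE from the quasi-likelihood fit. The 4 values of Fech lie between -0.43 and -0.19, the day 10 value of Uros is at -0.64, and the bars of Alas2 and Hmox1 are the widest.

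Time and withdrawal moved few members. Withdrawing doxycycline gave 0 of 9 called members in the miR-125b cells and 0 of 9 in the controls by edgeR or DESeq2, with 0 at an unadjusted p under 0.05 in either and 0% of all genes called by edgeR. Alas2 in the miR-125b cells was the 1 member with groups apart, and in the controls there were 0, where 5.02% of all genes were apart. The fold changes of withdrawal ran from -1.16 (Alas2) to 0.48 (Hmox1) with miR-125b and from -0.24 (Hmox1) to 0.25 (Alas2) in the controls. From day 2 to day 10, 0 of 9 were called in the miR-125b cells by either tool, where 0.224% of all genes were called by edgeR. There 3 of 9 (Alas2, Cpox and Uros) had an unadjusted edgeR p under 0.05, beside 1999 of 13419 genes. With the replicate block, 1 of 9 was called there, Cpox, as given above. In the controls 0 of 9 were called and 0 had an unadjusted p under 0.05, with 0% of all genes called by edgeR. Urod alone had groups apart there, higher at day 10 by 0.22 ± 0.12, as did 14.6% of all genes. The replicate block called 0 of 9 members for withdrawal in either construct and for time in the controls, where it called 0.0522%, 0.00745% and 0.149% of all genes. The miR-125b effect was tested for a difference between day 10 and day 2, and between withdrawal and continued doxycycline. Both tests called 0 of 9 members and 0% of all genes by edgeR. In the first, 1 member (Uros) had an unadjusted edgeR p under 0.05, beside 920 of 13419 genes. In the second 0 members had one, beside 226 genes. DESeq2 called 0 members in both.

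The libraries numbered 2 set members apart in both directions. Hmox1 was highest in the library numbered 2 in 7 of 8 groups, as were 11.4% of all genes in at least 7 of 8, and in the controls it exceeded the mean of the other 2 libraries by 1.19 to 1.87 on the log2 scale. Alad was lowest there in 8 of 8 groups, as were 4.52% of all genes, with log2 ratios of -1.11 to -0.24. Cpox was lowest in 6 of 8 groups, and Alas1, Urod and Ppox in 5. The share of all genes that were lowest in 5 or 6 groups was not counted, so these counts cannot be called particular to the members. Replicate number took 63.7% of the variance of Alad, 49.2% of that of Hmox1 and 41.5% of that of Alas1, where the median gene had 18.3%. The labels do not say what a replicate number shares.

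Cell type markers moved with the same libraries. The summed level of 10 megakaryocyte markers was highest in the library numbered 2 in 7 of 8 groups, with medians of 3139, 5519 and 3869 CPM for numbers 1, 2 and 3. The 8 mast cell and basophil markers were likewise highest there in 7 of 8 groups (medians of 63.6, 273 and 75.4 CPM), and the neutrophil granule markers lowest in 7 of 8 (35.2, 21.0 and 41.2 CPM). Of 19 erythroid genes tested, 8 were lowest in the library numbered 2 in at least 7 groups, as were 9.79% of all genes, but their summed level was lowest there in 4 of 8 groups only (medians of 1473, 1484 and 1620 CPM). The iron uptake and storage genes were highest there in 7 of 8 groups in sum (medians of 2802, 3632 and 3295 CPM), and the iron-sulfur cluster genes lowest in 8 of 8 (1139, 1071 and 1152 CPM). The part of these cells in the levels of Hmox1 and Alad was not tested.

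**Figure D5:**
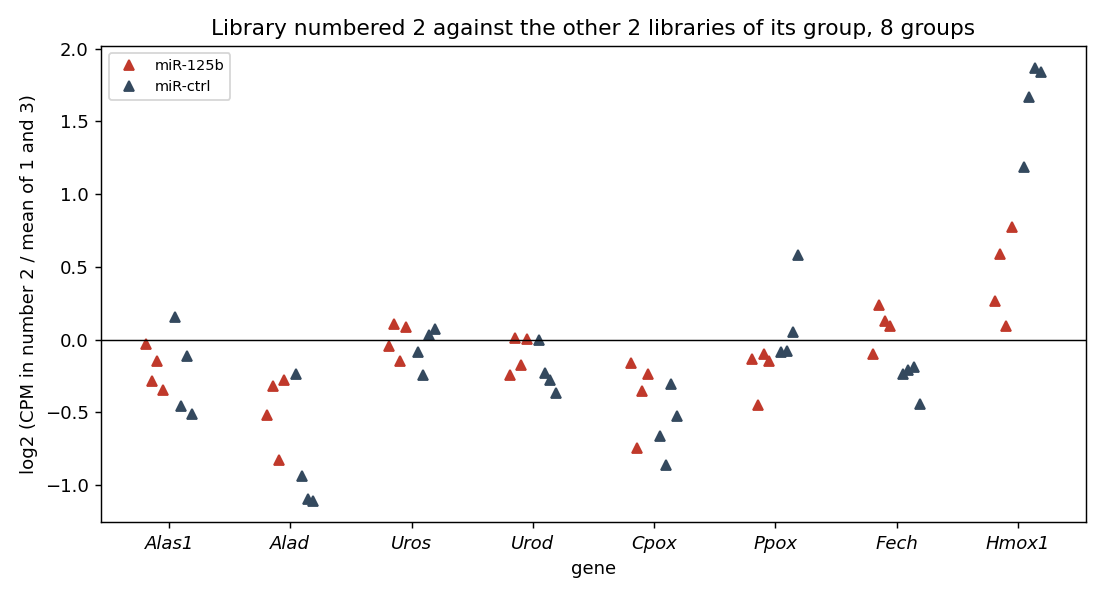
Log2 ratio of the library numbered 2 to the mean of the other 2 libraries of its group, for 8 genes in the 8 groups (triangles, coloured by construct); Alas2 is left out because of its low counts. The Hmox1 triangles are all above 0 and reach 1.87, and the Alad triangles are all below 0.

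The genes that feed and empty the pathway were read from lists of iron uptake and storage (8 of 9 tested), mitochondrial transport (10), iron-sulfur cluster assembly (9), heme breakdown and export (5) and the Bach1 and Nrf2 pathway (13). In none of the 11 comparisons was a gene of these 5 lists called by edgeR without the block. DESeq2 called 1, Flvcr1 at day 10, where it called 573 genes in all. For the mean over conditions, 0 of 8, 2 of 10, 1 of 9, 1 of 5 and 2 of 13 had an unadjusted edgeR p under 0.05, as had 1618 of all 13419 genes. With the replicate block, genes called with miR-125b over the 4 conditions were all lower, among them Abcb10, a transporter of the inner mitochondrial membrane, at -0.16 (edgeR adjusted p = 0.0259). Its protein is a known partner of ferrochelatase. Of the other lists, Aco1, which senses iron, Iba57, Gclm and Mafk were also lower with the block, at -0.16, -0.30, -0.20 and -0.18. That makes 1 of 8, 2 of 10, 1 of 9, 0 of 5 and 2 of 13 genes in the order of the lists, where 3.09% of all genes were called lower. Without the block the edgeR adjusted p of Abcb10 was 0.131.

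At day 10 the block called Flvcr1, a heme exporter, at -0.48 (edgeR adjusted p = 0.0295), Blvra, which reduces the biliverdin that Hmox1 makes, at -0.28 (0.0458), Clpx, the unfoldase that acts on the aminolevulinate synthases, at -0.29 (0.0490), and Iba57 and Gclm. All 5 were lower, where 3.89% of all genes were called lower, and their edgeR adjusted p-values without the block lay between 0.0781 (Flvcr1) and 0.291 (Blvra). DESeq2 gave -0.49 for Flvcr1 (DESeq2 adjusted p = 0.0221). Slc40a1, the iron exporter, had 0 to 6 counts and was the gene not tested. These genes outside the 9 were picked for being called with the block, after their values were seen.

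The erythroid list, which holds Gata1 targets of red cell development, had 0 of 19 genes called in each comparison by edgeR without the block. DESeq2 called 0 of the list as well. It gave an adjusted p to only 17 genes of the list for miR-125b against control at day 10. For day 10 against day 2 in the controls it gave one to only 5. For the mean over the conditions 6 had an unadjusted edgeR p under 0.05, beside the 1618 of 13419 of all genes, with a median log2 fold change of -0.14 beside -0.0086 for all genes. After withdrawal 5 of 19 had such a p, beside 1147 of all genes, and the median was -0.38. With the block, 2 of 19 fell after withdrawal, Hba-a1 (-1.55, edgeR adjusted p = 0.0325) and the transcription factor Nfe2 (-0.34, edgeR adjusted p = 0.0392), where 1.86% of all genes were called. With the block 2 of 19 also fell in the mean over the conditions, where 3.09% of all genes were called lower, the globins Hba-a1 (-0.92, edgeR adjusted p = 0.00361) and Hbb-y (-1.32, edgeR adjusted p = 0.0142). In that mean, 0 of 10 megakaryocyte markers were called by edgeR without the block or by DESeq2, and 0 had an unadjusted edgeR p under 0.05. With the block 4 fell and 1 rose, where 6.39% of all genes were called in either direction. Gp9 (-0.42, edgeR adjusted p = 0.00173) and Gp1bb (-0.53, edgeR adjusted p = 0.00215), parts of the platelet receptor for von Willebrand factor, were lower, and Ppbp (0.99, edgeR adjusted p = 0.00975), a platelet chemokine, was higher. Some markers of other cells rose with miR-125b over the 4 conditions: Mpo (4.69, edgeR adjusted p = 2.5e-05) and Ctsg (3.09, edgeR adjusted p = 0.00286) of neutrophil granules, and Prss34 (4.05, edgeR adjusted p = 0.00238) and Mcpt8 (3.38, edgeR adjusted p = 0.00317) of basophils and mast cells. At day 10 Mpo lay at 13.5 to 26.3 CPM with miR-125b and 0.0537 to 0.875 CPM in the controls, so these fold changes start from a few reads. In all, 2 of 6 neutrophil granule genes and 2 of 8 mast cell and basophil genes were called, where 0.738% of all genes were called higher. The mast cell and basophil list as a whole did not move one way, with 6 of 8 above 0 and a median of 0.30 in the mean, and 2 of 8 above 0 and a median of -0.16 at day 13. In sum the neutrophil granule markers lay at 29.8 to 98.4 CPM with miR-125b at day 10 against 5.63 to 31.3 in the controls, and over all 12 libraries of a construct at 23.2 to 98.4 against 5.26 to 42.7. Their part in the lower levels of Uros and Fech was not tested.

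The genes whose levels followed the members most closely were found by Pearson's r across the 24 libraries among 9846 genes of moderate expression (9847 for Alas2). For Hmox1 they were Pear1 (r = 0.91), Dlg3 (0.90) and Copz2 (0.90). Pear1 encodes a platelet receptor. Within the 8 libraries of 1 number, the r of Pear1 ran from 0.20 to 0.97. For Alas1 they were Plcb4, Fkbp3 and Nup37 (each 0.79), and for Alas2, at its few counts, Dhrs13, Kif4 and Ubr7 (0.60 to 0.61). Among the members, Alad and Hmox1 went most in opposite directions, with r of -0.76 over the 24 libraries and -0.87 for the deviations from group means. The libraries share depth and replicate number across genes, so these values are descriptions.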

How the data were processed

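Total RNA from 24 libraries was sequenced. The authors deposited 1 table of raw read counts per gene, made with fastp, HISAT2 2.0.5 and featureCounts on mm10 per the submitters' processing notes. The annotation and strand setting are not given in the sources used here. Of 47069 Ensembl identifiers, 46488 were named through GENCODE M21 (GRCm38), whose coordinates are used; unnamed ones held up to 0.0638% of the counts of a library. Totals of 14694900 to 23755245 counts set the precision. Replicate pairs differed by 11.6 to 109 in chi-square per degree of freedom, so each library counted as 1 replicate.

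Genes passing filterByExpr (13419) were fitted with edgeR 4.0.16 (R 4.3.3) in 1 robust quasi-likelihood model with 8 group coefficients, TMM scaling and 16 residual degrees of freedom, tested two-sided in 11 comparisons and adjusted by Benjamini-Hochberg over all genes at 0.05. Fold changes with a standard error come from this model, and CPM values are TMM-scaled. The computation was tested on simulated data. Alternatives were the replicate block, RLE factors, DESeq2 1.42.0, no filter, only the groups compared, leaving out each library and, chosen after seeing the data, leaving out the libraries numbered 2.

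The replicate numbers come from the labels, which do not say what they share. Deviations from group means correlated above 0.1 in 84 of 84 same-number pairs between groups (0.163 to 0.781), against a median of -0.30 for different numbers. Such deviations cancel within a group, so the negative median is no separate evidence. The numbers were taken to pair the libraries on this ground. All 9 members are named in each comparison, with up to 3 called genes of each other list and the 3 genes most like Alas1, Alas2 and Hmox1. The members and lists were chosen with earlier results of these data known. The lists cover iron handling, mitochondrial transport, iron-sulfur clusters, heme breakdown, Bach1 and Nrf2, erythroid genes, and markers of megakaryocytes, mast cells and basophils, neutrophil granules, macrophages (0 of 4 tested genes called by edgeR without the block, and Csf1r higher at day 10 with the block) and hepatocytes (0 of 2 by edgeR with or without the block). DESeq2 called 0 genes of the macrophage and hepatocyte lists. It gave an adjusted p to only 1 gene of each for miR-125b against control at day 10. For day 10 against day 2 in the controls it gave one to 0 genes of either list. Some results on genes outside the 9 members are not reported here.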

Additional observations from a re-analysis of the deposited data

Results flagged for a closer look

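Opposite directions of the miR-125b effect at different times, in every pair of libraries, were seen for Ppox and Cpox. Ppox was higher with miR-125b in 3 of 3 pairs at day 2 and at day 10 and lower in 3 of 3 at day 13 on doxycycline. Its log2 fold change at day 2 exceeded that at day 13 by 0.40, and at day 10 it exceeded it by 0.76. Cpox was higher in 3 of 3 pairs at day 10 and lower in 3 of 3 after withdrawal. Its fold changes of 0.081 ± 0.27 and -0.31 ± 0.27 (SE) differ by 0.39. None of these fold changes was called alone, and the differences between these times were not tested. Only the members were searched for such reversals. The share of all genes that show them was not counted, so they cannot be called particular to these members.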

How the results depend on the processing

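Few counts limit Alas2, and 3 libraries a group limit all members. The replicate block, RLE factors and DESeq2 kept the call of Uros at day 10. It was lost without a filter (log2 fold change -0.65, adjusted p = 0.0909), with only the groups compared (-0.64, 0.294) and without the libraries numbered 2 (-0.76, 0.0549); the cause was not tested. Leaving out 1 library gave -0.72 to -0.56. Of 935 fold changes recomputed over 47 results, 877 kept their direction and side of the threshold, 26 passed it, 7 fell short and 25 reversed. No level moved by over 1 SD under another scaling (144 values).

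Members called were 2 with the replicate block and with DESeq2 for the mean over conditions, and 1 with the replicate block for day 10 against day 2 in miR-125b cells. At day 10 they were 0 without a filter, with only the groups compared and without the libraries numbered 2, which gave 1 for the mean. Leaving out 1 library gave 0 to 1 at day 10 and 0 to 1 for the mean. The block changed no other call of a member.

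Genes called at day 10 (117) were 1158 with the replicate block, 573 with DESeq2, 65 without a filter, 0 with only the groups compared, 658 without the libraries numbered 2 and 1 (without control replicate 1) to 799 (without miR-125b replicate 2) with 1 library left out. For withdrawal (16) they were 249, 89, 10, 0, 3 and 5 to 15 in that order, and for the mean (172) 858 with the block, 357 with DESeq2, 370 without the libraries numbered 2 and 81 to 260. Day 10 against day 2 gave 547, 303, 18, 4, 0 and 4 to 241 in miR-125b cells (30), and in controls (0) 20 with the block, 54 with DESeq2, 1 without a filter and 0 to 8. At day 2 (0) DESeq2 gave 2; at day 13 (0) the block gave 2 and DESeq2 3. The effect of withdrawal (0 and 0) gave 7 and 1 with the block and 3 and 8 with DESeq2.

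Reversals were of values near 0. With 1 library left out, the mean fold change ran from -0.043 to 0.13 for Alad, -0.046 to 0.28 for Hmox1, -0.0062 to 0.11 for Ppox, -0.0018 to 0.080 for Alas1 and -0.29 to 0.0035 for Alas2. Cpox ran from -0.16 to 0.29 at day 10 and from -0.066 to 0.36 for time in the controls, and Uros from -0.13 to 0.052 at day 13. Without the libraries numbered 2, Uros at day 13 was 0.022 and the mean of Alad -0.050.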
